A study of Mus musculus with 18 samples.

Results

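The genes followed here carry a secreted or membrane protein through the first steps of the secretory pathway. They were taken by gene symbol, for the step each product serves. They are 47 of the 55469 genes in each table of normalised counts, and all 47 were present. In the order of the pathway there were 21 genes of ER entry, 7 of oligosaccharyl transfer, 8 of the COPII coat, 6 of the COPI coat and 5 cargo receptors.

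RNA was taken from male mice, from the prostate's ventral plus lateral lobes, on a C56NL/6N background, aged 10 or 30 weeks, with 3 libraries in each of 6 groups. WT mice were ELAC2+/+ littermates. KO mice (ELAC2-/-) lost exon 8 of Elac2, which encodes the enzyme that trims tRNA 3′ ends, only where the probasin promoter drives Cre (Pb-Cre), that is in prostate epithelium, so stroma and other cells of these lobes kept the gene. A537T mice carried the alanine to threonine substitution of that name in every cell, introduced by CRISPR. Each mutant group was compared with WT of its age. Libraries go by their labels, WT 10AF to 12AF, KO 13AF to 15AF and A537T 16AF to 18AF at 10 weeks, and WT 1AF to 3AF, KO 4AF to 6AF and A537T 7AF to 9AF at 30 weeks, and values are given in that order. The question for these genes was whether ER entry, glycan transfer and the coats moved together or apart when Elac2 was lost or altered.

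Signal recognition particle (SRP) binds a signal peptide as it leaves the ribosome and docks at the SRP receptor, and the chain then enters the ER through the Sec61 channel, where signal peptidase removes the signal. The oligosaccharyltransferase (OST) complex transfers a preassembled glycan to asparagines, COPII vesicles carry folded cargo out of the ER, and COPI vesicles return escaped ER residents bound by the KDEL receptors. Prostate luminal cells secrete large amounts of protein, and many of these genes are induced in other cells by the ER stress factors XBP1 and ATF6.

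The libraries held 6569642 to 11225281 reads, with a median of 8586877. The prostate genes Pbsn (0.0159 to 0.29% of counts) and Hoxb13 (0.00677 to 0.0387%) were detected in all 18 libraries. A list of 11 prostate luminal genes took 0.523 to 3.92% of counts in KO, 7.93 to 10.5% in A537T and 3.74% (10AF), 12.7% and 13.5% in WT at 10 weeks, and at 30 weeks 4.56 to 7.44% in 4AF, 6AF, 7AF and 9AF, 14.4% in 5AF, 14.9% in 8AF and 7.73 to 15% in WT. Pbsn lay the other way in KO at 10 weeks, at 0.191 to 0.272% against 0.0288 to 0.172% in WT. The part of these shares in the results was not tested. RNA of 2 other tissues was present as well. At 10 weeks a list of 25 skeletal muscle genes took 3.95 to 12.9% of counts in WT, 0.0589 to 2.09% in the KO group and 1.58 to 4.45% in the A537T group, and at 30 weeks 0.0103 to 0.0732% in any library. A list of 10 seminal vesicle genes took 6.56 to 10.3% in the 3 KO libraries at 10 weeks, 0.0397 to 0.2% in A537T and 0.000788 to 4.64% in WT. At 30 weeks it took 6.32 to 9.18% in the KO libraries 4AF and 6AF and the A537T libraries 7AF and 9AF, but at most 0.00038% in 5AF, 8AF and the WT libraries. This list leaves out 9530002B09Rik, which was abundant in libraries that lack the Svs genes, a choice made after its values were seen. The seminal vesicle score used as covariate, and the scaling without muscle and seminal vesicle genes, still counted 9530002B09Rik as a seminal vesicle gene. Elac2 itself measured 124, 142 and 166 normalised counts in WT and 119, 111 and 115 in KO at 10 weeks, over the whole gene, so this count does not test the loss of exon 8. In bulk tissue, fewer cells of a type and less RNA per cell cannot be told apart.

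In WT prostate the 47 genes spanned a wide range of levels per length. At 10 weeks the median gene measured 348 normalised counts per kb of exon, from 91.1 for Sec24a, a cargo adaptor of the COPII coat, to 1891 for Sec11c, a catalytic subunit of signal peptidase. Ssr4, a subunit of the translocon-associated TRAP complex, and Tram1, which helps chains enter the membrane, followed Sec11c with WT medians of 1813 and 1440 per kb. Among the OST genes Rpn2 had the highest median, 750.1 per kb, and Dad1 the lowest, 143. Copb2 and Copa led the COPI coat with 755 and 721 per kb, and their WT ranges overlapped (483 to 808 and 553 to 728). At 30 weeks Sec11c was again the highest at 2223 per kb, and Kdelr3, the least abundant of the 3 KDEL receptors, was the lowest at 59.3.

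A pair of the coat genes share a start region. Sec24a and Sar1b lie head to head on chromosome 11 of GRCm38, where the first base of Sar1b (51763687, forward strand) follows the first base of Sec24a (51763634, reverse strand) with 52 bases between them. The genes Copg1, Rpn1 and Sec61a1 sit on chromosome 6 with 170886 and 398274 bases between neighbours.

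Start regions were also read for letters that ER stress factors are known to bind. RefSeq windows of 250 bases before to 50 bases after a start were at hand for 36 of the 47 genes, of which 29 run into a GENCODE transcript in the same orientation. The letters TGACGTGG, the core of the unfolded protein response element (UPRE), were searched on both strands. They stood in the windows of 5 of the 36 genes, all of them coat or retrieval genes, 2 of COPII, 2 of COPI and 1 KDEL receptor, and in none of the 14 windows of ER entry or 6 of oligosaccharyl transfer. Across all genes with a window, 193 of 27025 (0.714%) held them. The ER stress elements ERSE (CCAAT and CCACG with 9 bases between them) and ERSE-II (ATTGG and CCACG with 1 base between them), whose CCACG is also the start of the reverse complement of the UPRE letters, stood in 0 of the 36, and the cyclic AMP element (TGACGTCA) in 1, Cope, against 2.03% of genes. The 5 UPRE stretches, from GRCm38.p6 and 5′ to 3′ along the gene's own strand with the 8 letters in capitals (CCACGTCA is the reverse complement), are shown because they are the one sequence feature that split the steps. No factor binding was measured.
Sec24d (COPII cargo adaptor), chr3:123267459-123267488, forward strand: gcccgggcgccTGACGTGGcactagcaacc
Sec23a (COPII inner coat), chr12:59011993-59012022, reverse strand: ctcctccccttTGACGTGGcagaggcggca
Copb1 (COPI beta subunit), chr7:114254690-114254719, reverse strand: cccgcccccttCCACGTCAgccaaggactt
Copb2 (COPI beta-prime subunit), chr9:98563713-98563742, forward strand: tcccggaagttCCACGTCAgtgggttggcc
Kdelr3 (KDEL receptor), chr15:79516367-79516396, forward strand: tggccgccccgCCACGTCAccgcgcggcca

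All 47 genes passed the filter on low counts in each comparison, and in none of the 4 did any gene pass the threshold (limma on log2 normalised counts, Benjamini-Hochberg adjusted p under 0.05). The same held for the genome, with 0 of 15089, 15131, 14729 and 14789 genes (0%) called in KO at 10 weeks, A537T at 10 weeks, KO at 30 weeks and A537T at 30 weeks. edgeR on the recovered reads called 0 genes as well, while DESeq2 called 715 genes (4.75%), 90 (0.608%), 285 (1.94%) and 476 (3.28%), of which 1 belongs to the 47, Sar1b in KO at 10 weeks. The differences given for single genes below are therefore estimates with their errors, and none is a call unless said so.

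In KO at 10 weeks 31 of the 47 genes lay below WT and 16 above, with a median log2 fold change of -0.11 against -0.01 over all genes. Sar1b had the lowest value (-1.41) and Stt3b the highest (0.47), and 42 genes were within 0.5 of WT. At an unadjusted p under 0.05 there were 2 genes above WT (Stt3b and Ddost, against 7.97% of all genes in that direction) and 2 below (Sar1b and Dad1, against 11.5%). All 3 KO libraries exceeded all WT libraries for 6 genes, where 11.7% of all genes did, and all 3 lay below them for 4, where 14.3% did. Neither count stands out from its background. With libraries scaled to the same total, the median of all genes moved to 0.20 and that of the 47 genes to 0.10, so 32 of the 47 then lay above WT, while the gap between both medians stayed at -0.10. With a skeletal muscle score as covariate 22 lay above and 25 below, with a median of -0.030 and a gap to all genes of -0.029. However, the muscle shares of KO (0.0589 to 2.09%) and WT (4 to 12.9%) did not overlap at that age. Here and below, this covariate therefore cannot separate muscle RNA from genotype in KO. One WT library decided how many genes were called. Without 10AF, 2886 genes (19.2%) passed the threshold in limma, among them 11 of the 47, Ddost above WT and Sar1b, Sec61g, Kdelr3, Sec13, Spcs1, Sec11c, Ssr4, Tram1, Copb2 and Srp19 below.

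In A537T at 10 weeks the differences were small, and they depended on how skeletal muscle RNA was treated. Of the 47 genes 29 lay above and 18 below WT, the median log2 fold change was 0.02 (0.01 over all genes), and 46 genes were within 0.5 of WT, the exception being Sar1b at -0.78. No gene of the 47 had an unadjusted p under 0.05, where 2.76% of all genes did on the higher and 3.67% on the lower side, and no gene had its 3 mutant libraries apart from WT (5.58 and 6.34% of all genes did, above and below). Scaled to the same total, 39 of the 47 lay above WT and the median of all genes was 0.15. With a skeletal muscle score as covariate 42 of the 47 lay above WT, among them 20 of 21 ER entry and 8 of 8 COPII genes, and their median was 0.22 where that of all genes was 0.01.

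At 30 weeks the genes leaned below WT in both lines. In KO 36 of 47 lay below, with a median of -0.14 (-0.01 over all genes), and 6 had an unadjusted p under 0.05, all below WT (5.41% of all genes in that direction, and 5.56% above). Those 6 were Srp14, Srp68, Srp72, Rpn1, Sec23b and Cope. All 3 KO libraries lay below all WT libraries for 14 of the 47 genes, against 8.41% of all genes, and above them for 0, against 7.92%. In A537T 36 of 47 again lay below WT, with a median of -0.12 (-0.01 over all genes). Sec11c, Srp14, Rpn2 and Dad1 had an unadjusted p under 0.05, all below WT (6.28% of all genes, and 7.35% above), and 8 had their 3 libraries below all WT libraries (9.4% of all genes), with 0 above (9.18%). At each age both lines were set against the same 3 WT libraries, so their values are not independent. The size of these differences was small, and every one of the 47 genes stayed within 0.5 of WT on the log2 scale in both lines. Scaled to the same total, 36 of 47 lay below WT in KO and 35 in A537T. Scaled to the same total without muscle and seminal vesicle genes, the split was 15 above and 32 below in KO and 23 above and 24 below in A537T. The median of all genes was then 0.059 in KO and 0.10 in A537T. The gap between the median of the 47 genes and that of all genes stayed at -0.13 in KO and -0.12 in A537T. From the libraries almost without seminal vesicle RNA alone, 5AF gave a median of -0.089 with 36 of 47 below WT, and 8AF a median of -0.035 with 31 of 47 below. However, 8AF held the largest share of plasma and B cell RNA of any library, 0.105% of counts against 0.00721 to 0.0117% in WT at 30 weeks. The part of that RNA in the values from 8AF, here and below, was not tested. Without 5AF limma called 944 genes in KO (6.41%), of which 3 were among the 47, and without 8AF it called 1224 genes in A537T (8.27%), of which 2 were.

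**Figure D1:**
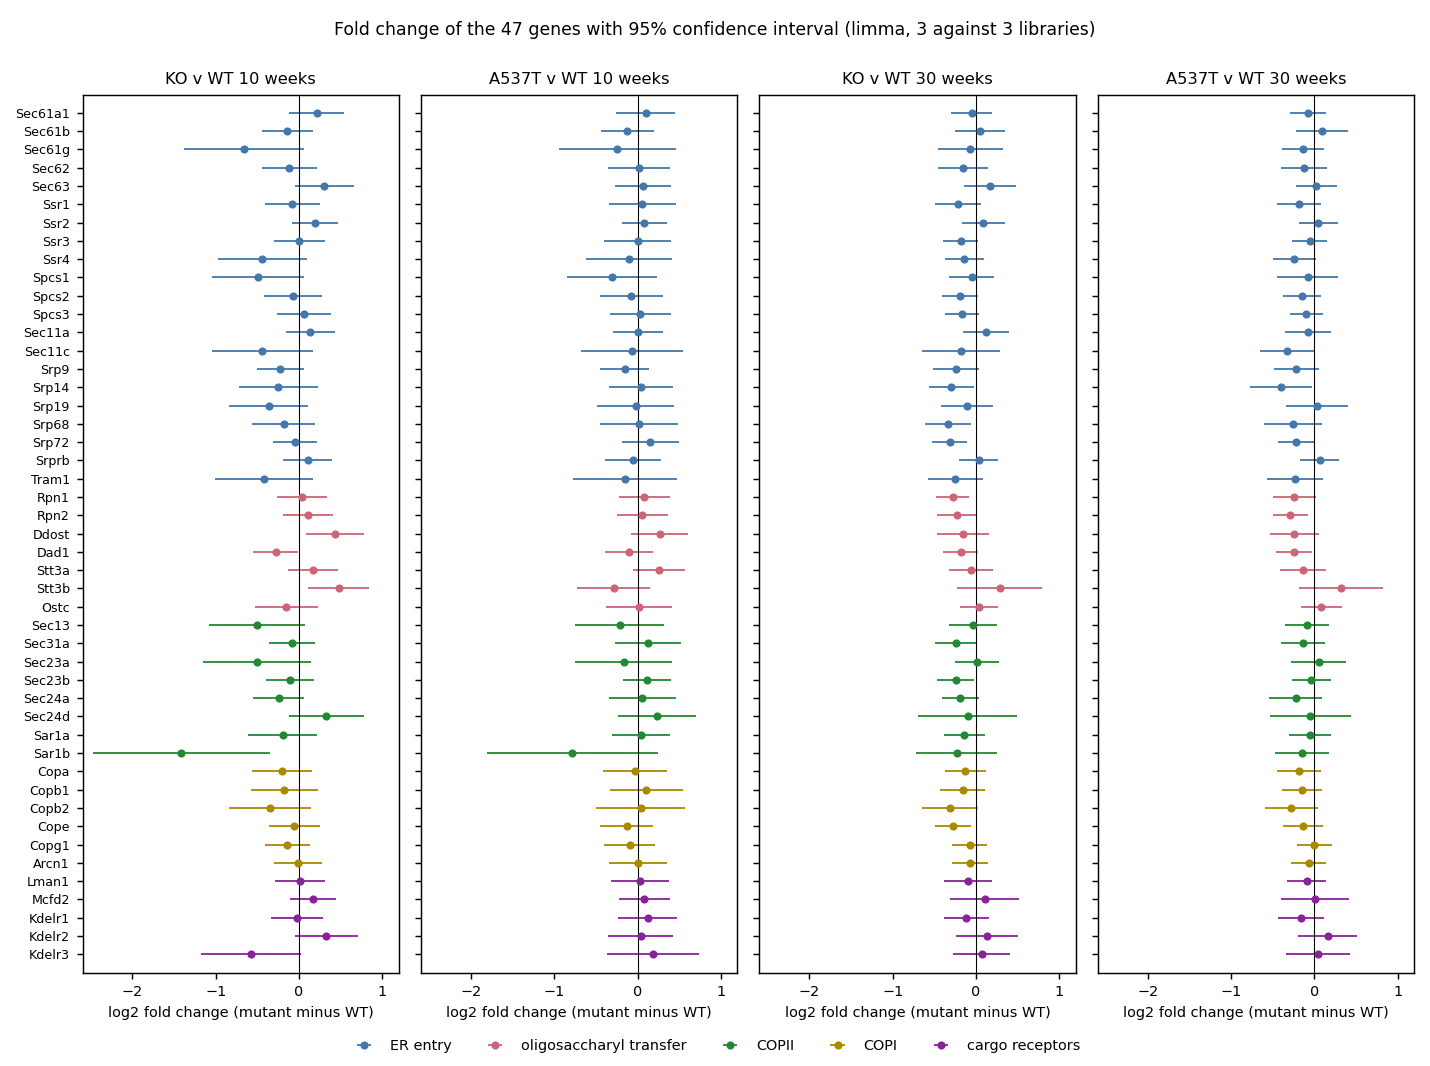
Each point is the log2 fold change of 1 gene (mutant minus WT, x axis) and each bar its 95% confidence interval, in 4 comparisons of 3 against 3 libraries, with genes in the order of the pathway and colours for the 5 steps. In both lines at 30 weeks 36 of 47 points lie left of 0, all within 0.5 of it, and Sar1b at 10 weeks has the lowest points and the widest bars.

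Among the ER entry genes, the SRP proteins lay lowest at 30 weeks in KO. All 5 were below WT there, with a median of -0.30 on the log2 scale against -0.16 for all 21 ER entry genes and -0.05 for the Sec61 channel with Sec62 and Sec63. Srp72, a scaffold of the particle, measured 1114, 1167 and 1172 normalised counts in WT and 887, 915 and 970.0 in KO. The groups did not overlap, and the difference was -0.32 (SE 0.09, adjusted p = 0.392 by limma). In A537T Srp72 measured 950.2, 1069 and 934 against 1104, 1157 and 1166, again without overlap, and the difference was -0.22 (SE 0.10), and -0.095 from 8AF alone. Its 10-week values overlapped WT in both lines.

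Srp68, the partner of Srp72, measured 913, 894 and 834 in WT at 30 weeks and 632, 796 and 666 in KO. Every KO library was below WT, and 5AF, the KO library with almost no seminal vesicle RNA, was the nearest to WT. The difference was -0.34 (SE 0.12), -0.14 (SE 0.13) from 5AF alone, and -0.44 with adjusted p = 0.0476 (limma) when 5AF was left out. In A537T the values were 702, 921 and 632 against 920, 900.3 and 843, so 8AF, likewise almost without seminal vesicle RNA, was at the top of the WT range and the other two were below it. Srp14, which lies at the other end of the particle and was chosen here after its values were seen, had the lowest value of the 47 genes in A537T at 30 weeks, -0.40 (SE 0.16, adjusted p = 0.341 by limma), with 8AF again inside the WT range.

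Tram1, the ER entry gene with the most counts, differed between libraries more than between groups. At 10 weeks it measured 2420.2, 4231 and 4434 in WT, 2810.5, 2842 and 2395 in KO and 3977, 3489.8 and 2799.6 in A537T. The WT library 10AF lay with the mutants, and the other two were above them in the KO comparison. At 30 weeks KO measured 3641, 4671 and 3907 against 5517, 4339 and 4648 in WT, with 5AF inside the WT range. The difference at 30 weeks was -0.25 (SE 0.14) in KO and -0.24 (SE 0.14) in A537T, and -0.042 and -0.014 (SE 0.17 each) from 5AF and 8AF alone.

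The Sec61 channel did not move as a unit in KO at 10 weeks. Sec61a1, its pore, lay 0.21 above WT (SE 0.14), with all 3 KO libraries above WT. Sec61g, a small subunit, measured 262, 468 and 638 in WT and 266, 272 and 273 in KO, chosen here after its values were seen. The KO libraries were almost equal to each other and to 10AF, and the difference was -0.66 (SE 0.30), or -0.41 (SE 0.53) with a skeletal muscle score as covariate. Without 10AF it was -1.01, with adjusted p = 0.0214 (limma).

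Signal peptidase and the TRAP complex, which sit beside the channel, were near WT at 10 weeks, with medians between -0.08 and 0.03, and a little below at 30 weeks, between -0.17 and -0.10. Sec11c measured 1009.6, 1706 and 2067 normalised counts in WT and 1126, 1123 and 1121 in KO at 10 weeks. The KO libraries were nearly equal and 10AF was below them. At 30 weeks it measured 2498, 1902 and 2070.5 in WT and 1528, 1894 and 1724 in A537T, without overlap, a difference of -0.33 (SE 0.14, adjusted p = 0.365 by limma) that was -0.22 without the WT library 1AF. The other catalytic subunit, Sec11a, had 283 to 329 normalised counts in WT at 10 weeks and overlapped WT in all 4 comparisons, from -0.08 to 0.14. The accessory subunits Spcs2 and Spcs3 lay below WT without overlap in both lines at 30 weeks, by -0.20 to -0.10.

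The genes of oligosaccharyl transfer lay on both sides of WT with all libraries and no covariate, 5 on one and 2 on the other in each comparison. At 30 weeks that split changed with a seminal vesicle score as covariate. In KO 7 of 7 then lay below WT (median -0.14), and in A537T 6 of 7 (median -0.15). From 5AF alone 7 of 7 lay below (median -0.14), and from 8AF alone 6 of 7 (median -0.19). In KO at 10 weeks 5 of the 7 lay above WT (median 0.11, but 0.008 with a skeletal muscle score as covariate and 0.32 scaled to the same total), while at 30 weeks 5 of 7 lay below in KO (median -0.15) and 5 of 7 in A537T (median -0.24). Rpn1 and Rpn2, the ribophorins that anchor OST to the translocon, overlapped WT at 10 weeks in both lines. At 30 weeks Rpn1 measured 2642, 2631 and 2735 in WT, 2136, 2169.8 and 2282 in KO and, in its own table, 2249, 2578 and 2037 in A537T. All 6 mutant libraries lay below WT. The differences were -0.28 (SE 0.09, adjusted p = 0.396) in KO and -0.24 (SE 0.11, adjusted p = 0.392) in A537T, both by limma, while 5AF alone gave -0.30 and 8AF alone -0.062 (SE 0.12 each).

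Rpn2 followed the same course. It measured 3323, 3425 and 3306 in WT at 30 weeks and 2639, 3149 and 2807 in KO, a difference of -0.23 (SE 0.10). In A537T it measured 2693, 2938 and 2644 against 3340.5, 3439.5 and 3331, which gave the smallest adjusted p of the 47 genes in that comparison, 0.295 by limma, at -0.29 (SE 0.09). No mutant library reached the WT range in either line, and 5AF and 8AF alone gave -0.089 and -0.20 (SE 0.12 each).

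Stt3a and Stt3b are the alternative catalytic subunits of OST, of which the first acts on chains still entering the ER and the second on sites that were skipped. Stt3b measured 2056, 2169.6 and 1697 in WT at 10 weeks and 2736, 2425 and 3061 in KO. Every KO library was above every WT library, and the difference was 0.47 (SE 0.15, adjusted p = 0.191 by limma), or 0.18 (SE 0.24) with a skeletal muscle score as covariate. A537T at that age lay on the other side, with 2036, 1597 and 1372 against 2127, 2203 and 1731, a difference of -0.29 (SE 0.19).

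At 30 weeks Stt3b split each mutant group. KO measured 3122 (4AF), 1718 (5AF) and 2754 (6AF) and A537T 2794 (7AF), 1763 (8AF) and 3207 (9AF), against 2017, 1957 and 2078 in WT. The 4 libraries with 6.32 to 9.18% of seminal vesicle RNA were above WT and the 2 libraries with almost none were below it. Without 5AF the KO difference was 0.54 (adjusted p = 0.0257) and without 8AF the A537T difference was 0.57 (adjusted p = 0.0199), while 5AF alone gave -0.23 and 8AF alone -0.19, all by limma. The 3 KO libraries at 10 weeks, the other group above WT, held 6.56 to 10.3% of seminal vesicle RNA, and the A537T libraries of that age, below WT in the mean, 0.0397 to 0.2%. In WT at 10 weeks 10AF held 4.64%, 11AF 1.77% and 12AF 0.00084%, but Stt3b in 10AF was below that in 11AF and above that in 12AF. The part of seminal vesicle RNA in the level of Stt3b was not tested. Stt3a overlapped WT in all 4 comparisons, between -0.13 and 0.26.

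Ddost, another OST subunit chosen here after its values were seen, lay above WT in KO at 10 weeks, with 1289.7, 1343 and 1558 against 1162, 1063 and 892 and no overlap, a difference of 0.43 (SE 0.15, adjusted p = 0.2 by limma), or 0.25 (SE 0.25) with the skeletal muscle score. Dad1, a small subunit and the one with the lowest level per length, lay below WT in that comparison by -0.28 (SE 0.11), so subunits of the same complex were apart in opposite directions.

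The COPII genes lay lowest of the 5 steps in KO at 10 weeks, with 7 of 8 below WT and a median of -0.22, or 4 of 8 and a median of -0.011, still the lowest, with libraries scaled to the same total. Sar1b, a GTPase that starts COPII assembly, carried the largest difference of the 47 genes. It measured 355 (10AF), 657 (11AF) and 1209.8 (12AF) in WT, 234, 341 and 186 in KO and 540.5, 404 and 291 in A537T. WT alone spanned more than 3-fold, the KO libraries lay below all of it, and the A537T libraries overlapped it. The differences were -1.41 (SE 0.45, adjusted p = 0.189 by limma) in KO and -0.78 (SE 0.44) in A537T, and DESeq2 called the KO value (-1.53, adjusted p = 0.0164). Without 12AF the limma value in KO was -0.97 and without 10AF -1.86. Sar1a, the paralog of Sar1b, measured 837, 1033 and 1084 in WT and 882, 1005 and 700 in KO, and overlapped WT in all 4 comparisons.

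The order of the Sar1b values at 10 weeks was close to that of the skeletal muscle list, which took 4, 6.67 and 12.9% of counts in 10AF, 11AF and 12AF, 0.0641, 2.09 and 0.0589% in the KO libraries and 4.45, 3.29 and 1.58% in the A537T libraries. With a skeletal muscle score as covariate the KO difference was -0.43 (SE 0.62) and the A537T difference 0.29 (SE 0.21). At 30 weeks, with at most 0.0732% of muscle RNA, Sar1b measured 437, 369 and 339.6 in WT, 258, 433 and 301 in KO and 310.4, 381 and 332 in A537T, and the groups overlapped.

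**Figure D2:**
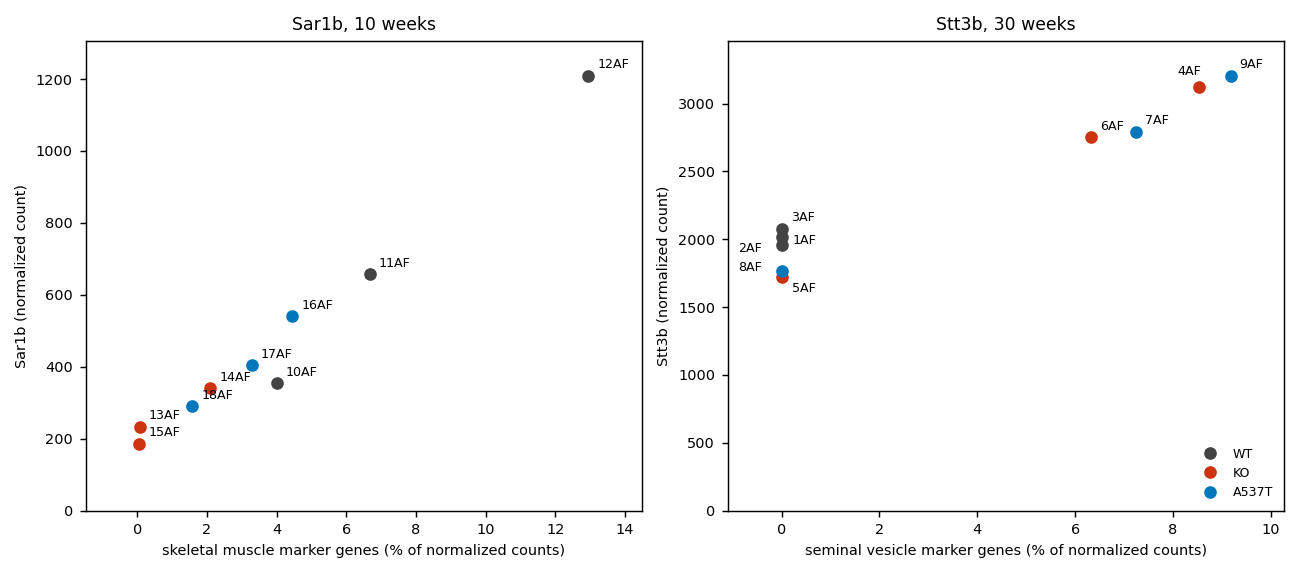
On the left, normalised counts of Sar1b (y axis) against the share of counts of 25 skeletal muscle genes (x axis, percent) in the 9 libraries at 10 weeks, and on the right, Stt3b against the share of 10 seminal vesicle genes in the 9 libraries at 30 weeks, each point 1 library named by its label, with WT drawn from the KO table and A537T from its own. Sar1b is highest in 12AF, which has 12.9% of muscle RNA, and the 4 libraries with seminal vesicle RNA have the 4 highest values of Stt3b.

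Sec23a, the inner coat subunit whose start region holds the UPRE letters, was also highest in 12AF, with 374, 379.8 and 654 in WT, 266, 418 and 288 in KO and 520.3, 394 and 390.4 in A537T at 10 weeks. The groups overlapped. The KO difference of -0.51 (SE 0.27) was 0.14 (SE 0.36) with the skeletal muscle score as covariate, smaller than its SE, so that fit gives no direction. Its paralog Sec23b behaved otherwise and was 642, 754 and 642 in WT and 601, 619 and 662 in KO. At 30 weeks Sec23b measured 710.0, 801 and 756 in WT and 644, 610.2 and 657 in KO, without overlap, a difference of -0.24 (SE 0.10), and the A537T value overlapped WT (-0.04, SE 0.10).

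Sec24a and Sec24d select cargo for the COPII coat. Sec24a, the neighbour of Sar1b, measured 578, 709.6 and 611 in WT and 572, 532 and 494 in KO at 10 weeks, and 763, 697 and 701 against 657, 627 and 611 at 30 weeks. The KO libraries were below all WT libraries at both ages, by -0.25 (SE 0.13) and -0.19 (SE 0.09). Sec24d, with the UPRE letters, lay 0.33 (SE 0.19) above WT in KO and 0.23 (SE 0.20) above in A537T at 10 weeks, with overlap in both. With the skeletal muscle score as covariate its KO value was -0.19 (SE 0.23), smaller than its SE. The WT libraries of Sec24d at 30 weeks spread from 452 to 817. Sec31a, which forms the outer cage and had the most counts of the step, measured 1959.7, 2118 and 1904 in WT and 1791, 1772 and 1512 in KO at 30 weeks, without overlap (-0.24, SE 0.11). From 8AF alone 7 of the 8 COPII genes lay above WT (median 0.023), where all 3 A537T libraries gave 1 of 8 (median -0.071).

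The COPI genes lay on one side in KO, but that side depended on the scaling and on the libraries. All 6 coatomer subunits lay below WT at 10 weeks (median -0.16), where scaling to the same total put 5 of 6 above (median 0.053). All 6 lay below WT at 30 weeks in KO (median -0.14) and in A537T (median -0.15), while 5AF alone gave 3 above and 3 below (median 0.007) and 8AF alone 4 above and 2 below (median 0.003). A537T at 10 weeks had 3 above and 3 below, or 6 above with libraries scaled to the same total. Copb2 measured 2660.1, 2575 and 2579 in WT, 1845, 2596 and 1934 in KO and 2013, 2617 and 1883 in A537T at 30 weeks. The libraries 5AF and 8AF were at the WT level and the other 4 mutant libraries were below it. The differences over all libraries were -0.31 (SE 0.14) and -0.28 (SE 0.14), and those from 5AF and 8AF alone -0.0047 (SE 0.11) and 0.0078 (SE 0.12). Without 5AF the KO value was -0.46 (adjusted p = 0.0276) and without 8AF the A537T value -0.42 (adjusted p = 0.0332), by limma.

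Cope, the epsilon subunit, did not share that split in KO. It measured 904, 899.7 and 984 in WT and 737, 774 and 789 in KO at 30 weeks, with every KO library below WT, a difference of -0.28 (SE 0.09, adjusted p = 0.407 by limma), and -0.26 (SE 0.13) from 5AF alone. In A537T the values were 859.8, 873 and 749 against 884, 879 and 965, a difference of -0.14 (SE 0.10), and 8AF alone, the nearest to WT, gave -0.056 (SE 0.13). Copa, the alpha subunit and the COPI gene with the most counts, measured 3750.5, 3672 and 3614 in WT and 3158, 3744 and 3235 in KO, with 5AF again inside the WT range (-0.13, SE 0.10).

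**Figure D3:**
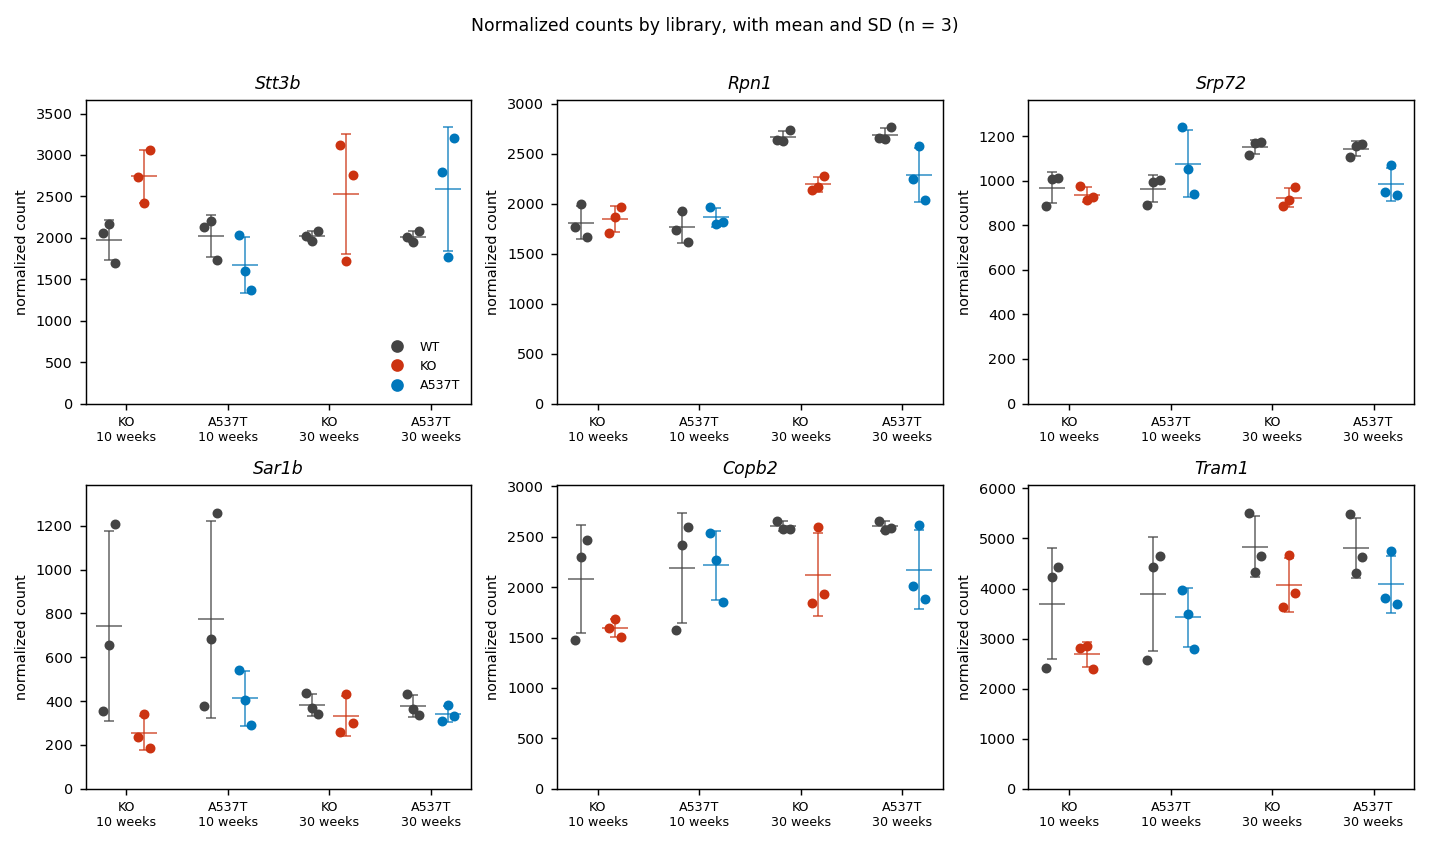
Normalised counts (y axis, from 0) of 6 genes in every library, with bars for the mean and SD of 3 libraries, for the 4 comparisons on the x axis, with the WT values each table itself holds. Stt3b and Copb2 split the mutant libraries at 30 weeks in opposite directions, and Rpn1 and Srp72 lie below WT in all 3 KO libraries at 30 weeks.

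The cargo receptors had medians of 0.01, 0.08, 0.07 and 0.00 in KO and A537T at 10 weeks and KO and A537T at 30 weeks. In A537T at 10 weeks all 5 lay above WT, and in KO at that age scaling to the same total put their median at 0.22, with COPI then at 0.053. Kdelr2 and Kdelr3 return ER proteins to the ER together with Kdelr1. In KO at 10 weeks Kdelr2 measured 739, 761 and 777 against 630.0, 715 and 491, without overlap (0.33, SE 0.16), and Kdelr3 measured 101, 89 and 74.3 against 92.9, 161 and 149, with overlap (-0.58, SE 0.25, or -0.36, SE 0.44, with the skeletal muscle score). At 30 weeks Kdelr2 was highest in the libraries with seminal vesicle RNA, 797 and 739 in KO and 793 and 766 in A537T, against 583 and 601 in 5AF and 8AF and 552 to 711 in WT. Lman1, the lectin that loads glycoproteins into COPII vesicles, overlapped WT in all 4 comparisons, from -0.09 to 0.03.

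The steps were set against each other within each library, as the mean log2 difference from the WT mean over the genes of a step. In KO at 10 weeks the OST mean exceeded the COPII mean by 0.38, 0.35 and 0.63 in the 3 KO libraries and by 0.21, 0.07 and -0.28 in WT. Every KO library was above WT, and the same was so against COPI (0.22, 0.22 and 0.37 in KO, 0.22, -0.03 and -0.19 in WT), where 10AF reached almost the KO values. Both WT differences fell as the skeletal muscle share rose (4, 6.67 and 12.9%). The seminal vesicle share fell in the same order (4.64, 1.77 and 0.00084%) and the prostate luminal share rose (3.74, 12.7 and 13.5%). No seminal vesicle score was fitted at 10 weeks. With a skeletal muscle score as covariate the KO medians were 0.008 for OST, -0.17 for COPII and -0.090 for COPI, instead of 0.11, -0.22 and -0.16. These shares cannot be told apart in the WT libraries, and the part of each in these differences was not tested. In A537T at 10 weeks and in both lines at 30 weeks the OST and COPII means did not separate the groups. The OST mean against the cargo receptor mean did at 30 weeks, with -0.19, -0.055 and -0.062 in KO and -0.12, -0.070 and -0.10 in A537T, all below the WT values of 0.070, -0.029 and -0.041. At 30 weeks the cargo receptor mean exceeded the COPI mean by 0.41 and 0.22 in 4AF and 6AF and by 0.18 and 0.26 in 7AF and 9AF, while the difference was -0.06 in 5AF and -0.05 in 8AF and -0.11 to 0.09 in WT. In KO at 10 weeks that difference was 0.118, 0.134 and 0.163, barely above the WT values of 0.117, 0.027 and -0.14. Several pairs of steps were compared, and both lines share their WT libraries. Such a separation of 3 against 3 libraries has a probability of 0.1 without any group difference. These means are descriptions of genes that were chosen together, and no test was made on them.

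**Figure D4:**
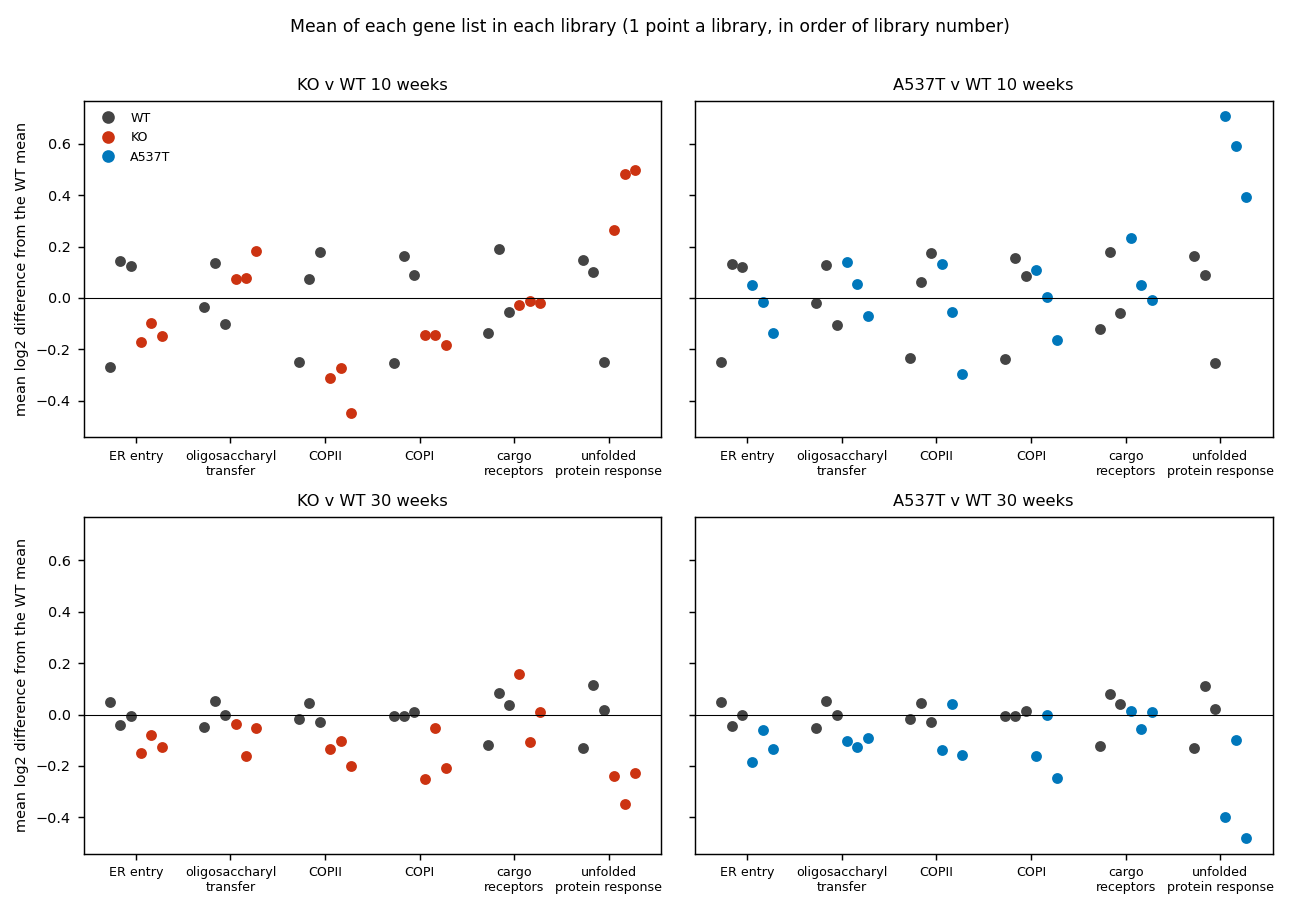
Each point is 1 library and gives the mean log2 difference from the WT mean (y axis) over the genes of a list (x axis), for the 5 steps and the unfolded protein response list, in 4 comparisons. In KO at 10 weeks the 3 COPII points are the lowest of the panel at -0.27 to -0.45, and at 30 weeks the unfolded protein response points of both lines lie between -0.48 and -0.10.

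A ratio between a pair of related genes in the same library does not depend on how that library was scaled. Such log2 ratios were compared for 7 pairs in 4 comparisons, and in 4 of the 28 tests the 3 mutant libraries did not overlap WT. Each gave p = 0.1 by a 2-sided exact permutation test (adjusted p = 0.56 over 28 tests). A p of 0.1 is the smallest that 3 against 3 libraries allow, and such a separation has that probability without any group difference. A count of 4 of 28 therefore does not stand out. In KO at 10 weeks Sar1b/Sar1a was -1.91, -1.56 and -1.90 against -1.24, -0.65 and 0.16 in WT, Sec11c/Sec11a was 1.82, 1.67 and 1.77 against 1.83, 2.37 and 2.79, and Kdelr2/Kdelr1 was 0.61, 0.45 and 0.53 against 0.35, 0.23 and -0.07. In A537T at 10 weeks Stt3b/Stt3a was 0.35, -0.01 and -0.09 against 0.81, 0.59 and 0.48. Stt3b/Stt3a lay on the other side in KO at that age (0.96, 0.71 and 1.00 against 0.76, 0.54 and 0.43), with overlap. In WT at that age Sar1b/Sar1a and Sec11c/Sec11a rose with the skeletal muscle share (4, 6.67 and 12.9%), and Kdelr2/Kdelr1 and Stt3b/Stt3a fell. The prostate luminal share rose in the same order and the seminal vesicle share fell (4.64, 1.77 and 0.00084%). The part of each tissue in these ratios was not tested.

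**Figure D5:**
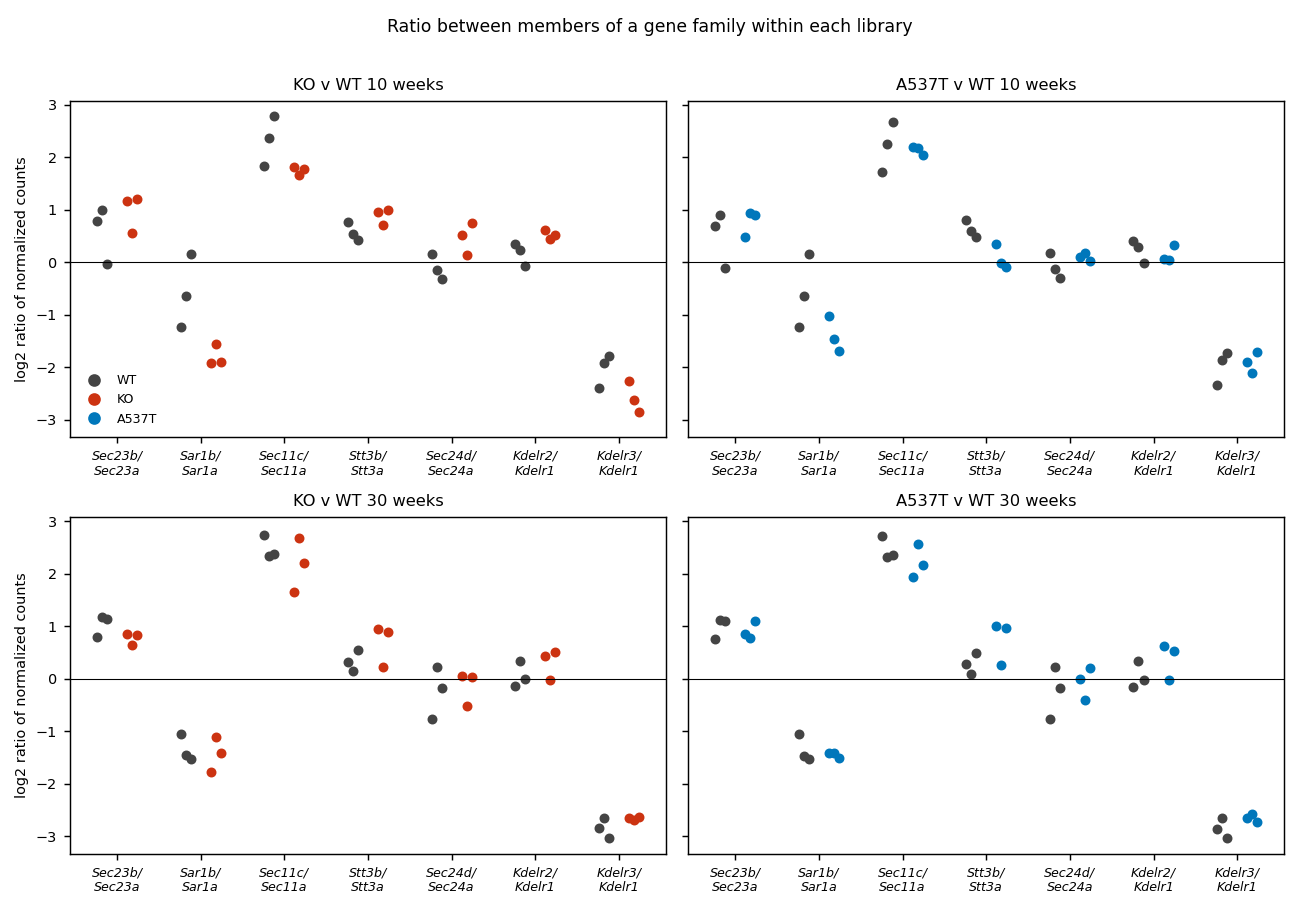
Log2 ratio of normalised counts between paralogs (y axis) for 7 pairs (x axis) in each library, WT to the left and mutant to the right of each position, in 4 comparisons. Sar1b/Sar1a, Sec11c/Sec11a and Kdelr2/Kdelr1 in KO at 10 weeks and Stt3b/Stt3a in A537T at 10 weeks are the 4 places where the groups do not overlap.

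Whether the mutant effect differed between ages was tested by an interaction term in limma over the tables of each line. It called 0 of 14295 genes in the KO line and 0 of 14292 in the A537T line (0% each), with 1724 genes (12.1%) at an unadjusted p under 0.05 in either line, of which 4 and 4 were among the 47. In both lines the OST genes Ddost and Rpn2 were among these, lower at 30 than at 10 weeks relative to WT by -0.58 (SE 0.20, adjusted p = 0.315) and -0.34 (SE 0.15) in KO and by -0.51 (SE 0.19, adjusted p = 0.322) and -0.35 (SE 0.14) in A537T. The KO set also held Rpn1 (-0.31, SE 0.14) and Kdelr3 (0.64, SE 0.29), and the A537T set Stt3a (-0.39, SE 0.17) and Srp72 (-0.37, SE 0.16). In neither line do 4 of 47 genes exceed the share of all genes. Both lines were set against the same WT libraries, so their values are not independent. Those libraries held 3.95 to 12.9% of skeletal muscle RNA at 10 weeks and at most 0.0732% at 30 weeks. The part of that RNA in these differences was not tested.

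Further genes of the same steps, written as wider lists of which 114 or 115 were tested, gave a like picture and 0 calls in each comparison. Their median log2 fold changes were -0.09, 0.01, -0.12 and -0.11, in the order KO and A537T at 10 weeks and KO and A537T at 30 weeks. At 30 weeks in KO 15 of 115 had an unadjusted p under 0.05 below WT and 1 above, against 5.41 and 5.56% of all genes. Uso1, the tether that captures COPII vesicles at the Golgi, measured 2251, 2613 and 2369 in WT and 1813, 1649.9 and 1676 in KO at that age (-0.49, SE 0.10, adjusted p = 0.331 by limma), with all KO libraries below WT, 5AF the lowest. Alg3, an ER mannosyltransferase of glycan assembly, measured 88.5, 95.6 and 104 against 60.3, 68.3 and 57 (-0.63, SE 0.16), and Arf4, a GTPase of the COPI pathway, 1589.8, 1562 and 1614 against 1169.6, 1369 and 1141 (-0.38, SE 0.10). Pgm3, a mutase on the route to a sugar nucleotide for glycan assembly, lay below WT without overlap in both lines at 30 weeks (-0.46, SE 0.12 and -0.53, SE 0.17), and Srpr, the alpha subunit of the SRP receptor, in KO (-0.33, SE 0.10).

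At 10 weeks the wider COPII gene Sec31b, a paralog of Sec31a, measured 41.1, 46.6 and 59.2 in WT, 14.6, 28.1 and 18.3 in KO and 27.7, 24.7 and 11.1 in A537T, so both mutant groups lay below WT (-1.26, SE 0.32 and -1.27, SE 0.39). Like Sar1b it was highest in 12AF. At 30 weeks its counts were near the filter of 10. Its A537T values of 12.1, 14.5 and 11 lay below the WT values of 15.2, 16.1 and 21.8 (-0.46, SE 0.35, adjusted p = 0.574 by limma). Its KO values at that age overlapped WT (0.19, SE 0.34). The part of muscle RNA in these values was not tested. Copz2, a COPI zeta subunit, lay at -1.01 (SE 0.33) in KO at 10 weeks with overlap. Emc2, of the ER membrane insertase, Tmed5, a p24 cargo receptor, and Cnih4, a cornichon cargo receptor, lay below WT without overlap in KO at 10 weeks, at -0.76 (SE 0.21), -0.50 (SE 0.14) and -0.68 (SE 0.21). In that comparison 14.3% of all genes lay below WT without overlap. Emc2, Tmed5 and Cnih4 were each highest in 12AF, at 335, 313 and 172. Among the 10-week libraries 12AF held the most muscle and prostate luminal RNA and the least seminal vesicle RNA. The part of each tissue in these 3 genes was not tested.

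The unfolded protein response list was measured beside these genes because it shares regulators with them. It stood apart from the 47 genes at 10 weeks. Of its 25 genes 21 lay above WT in KO (median 0.44, 11 above with an unadjusted p under 0.05, against 7.97% of all genes) and 24 in A537T (median 0.52, 15 above with an unadjusted p under 0.05, against 2.76% of all genes), while the medians of the 47 genes were -0.11 and 0.02. Creld2, an ER chaperone, measured 781, 544 and 410.1 in WT, 1221, 1717 and 1813 in KO and 1685, 1629.8 and 1633 in A537T, and the mutant libraries were all above WT (1.48, SE 0.26 and 1.52, SE 0.23). Seminal vesicle RNA took 6.56 to 10.3% of counts in that KO group, at most 0.2% in that A537T group and 0.000788 to 4.64% in WT. Skeletal muscle RNA took 0.0589 to 2.09% in KO, 1.58 to 4.45% in A537T and 3.95 to 12.9% in WT. The WT mean of the list was lowest in 12AF (-0.25, against 0.15 and 0.10). With a skeletal muscle score as covariate the list median was 0.33 in KO and 0.50 in A537T. Scaled to the same total it was 0.65 in both. The part of either tissue was not tested. At 30 weeks 20 of 25 lay below WT in both lines (medians -0.37 and -0.39), 14 in KO and 12 in A537T with an unadjusted p under 0.05 (5.41 and 6.28% of all genes below WT), and the mean over the list was -0.35 in 5AF and -0.10 in 8AF. From 8AF alone 15 of 25 lay below WT with a median of -0.079, and from 5AF alone 21 of 25 with a median of -0.42. Sdf2l1, a partner of the chaperone BiP, was 457, 697 and 586 against 447, 431 and 387 at 10 weeks in KO, and 456, 492 and 516 against 641, 829 and 701 at 30 weeks, without overlap at either age. No gene of the list passed the threshold. Without a covariate the genes that hold the UPRE letters did not share one direction at 10 weeks. Sec24d lay above WT in both lines and Copb2 and Kdelr3 below in KO and above in A537T. With the skeletal muscle score, KO values were -0.19 (Sec24d), -0.099 (Copb2, instead of -0.35), -0.36 (Kdelr3) and 0.14 (Sec23a), again on both sides. In A537T with that score Sec23a lay at 0.31 (SE 0.23), Copb1 at 0.38 (SE 0.21), Copb2 at 0.50 (SE 0.18) and Kdelr3 at 0.48 (SE 0.29). All 8 COPII genes, Sec24d among them, then lay above WT in A537T, so the genes with the UPRE letters shared one direction there.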

How the data were processed

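RNA-seq of 18 libraries was used. The authors trimmed reads (Trim Galore 0.4.1, cutadapt 1.18), aligned them with STAR 2.7.3a to GRCm38.p6 and quantified them by strand with Salmon. The authors deposited 4 tables of signal values, in which each library's gene counts were scaled by its DESeq2 (1.26) size factor among 6 libraries, so levels were compared within a table. Whole reads were recovered for at least 99.9% of values (tolerance 0.01 reads). In 4 columns the factor is near 1. Reads of a WT library differ between its 2 tables for 53.6 to 64.1% of genes. The authors' tables of fold changes and s-values were not used. Columns carry library labels (1AF to 18AF) and were assigned to groups, not replicates. The study's methods call its replicates biological, and p-values measure the spread between these libraries.

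Genes with a mean of at least 10 were tested on log2(normalised count + 1), which understates changes of low genes, with limma 3.58.1 (lmFit, eBayes with a mean trend; R 4.3.3), Benjamini-Hochberg over all genes, threshold 0.05. edgeR 4.0.16 and DESeq2 1.42.0 on recovered reads were alternatives, beside pseudocount 8, other filters (none, 100), other scalings, tissue scores as covariates and leaving out libraries. The fit was tested on simulated data. Of the gene IDs 54450 matched GENCODE vM21 exactly and 55107 without versions, and 35 are mitochondrial symbols. The authors used vM24.

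The members and lists were chosen with earlier results of these data known. Values by library are given for the 2 members of each step with the smallest p, the member with most counts, the paralog pairs, the 2 genes of each wider list with the smallest p, and Elac2. Not in the tables under these symbols were Srpra, Sec61gd, Get3, Get1, Camlg and Spink3. Plasma cell, smooth muscle and adipocyte lists were summed too. The plasma and B cell list took 0.0235 (9AF) to 0.105% (8AF) of counts in A537T at 30 weeks and 0.00721 to 0.0117% in WT, the smooth muscle and stroma list 0.161 to 0.896% over all libraries, and the adipocyte list at most 0.0353%. Tables and figures were made in Python 3.11.15 (matplotlib 3.10.9, scipy 1.17.1, pandas 2.3.3, numpy 2.4.6).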

Additional observations from a re-analysis of the deposited data

How the results depend on the processing

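No paired analysis was possible because the columns carry no replicate numbers. Leaving out 1 library in turn moved the genes called from 0 to 2886 (without 10AF) in KO at 10 weeks, 0 to 50 (without 10AF) in A537T at 10 weeks, 0 to 944 (without 5AF) in KO at 30 weeks and 0 to 1224 (without 8AF) in A537T at 30 weeks. The members called moved from 0 to 11, 0 to 0, 0 to 3 and 0 to 2 for the same libraries. The member medians ranged from -0.21 (without 10AF) to -0.03 (without 11AF), -0.08 to 0.09, -0.15 to -0.11 and -0.14 to -0.09. Age interaction calls ranged from 0 to 30 (without 14AF) in KO and 0 to 390 (without 8AF) in A537T, and the paralog ratios without overlap from 4 to 10 (without 10AF). The cause was not tested.

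DESeq2 called 715, 90, 285 and 476 genes in the order above and 1 member, in KO at 10 weeks. Without the mean trend limma called 1 gene in KO and 2 genes in A537T at 10 weeks, with no minimum mean 2 in A537T at 10 weeks, and with a seminal vesicle score as covariate 3 in A537T at 30 weeks. The member median moved to 0.10 (same total) and 0.088 (same total without muscle and seminal vesicle genes) in KO at 10 weeks, and to 0.22 with a muscle score as covariate in A537T at 10 weeks. In KO at 30 weeks it moved to -0.074 (same total without those genes), -0.085 (seminal vesicle score), -0.12 (edgeR), -0.13 (DESeq2) and -0.089 (without 4AF and 6AF), and in A537T at 30 weeks to -0.019, -0.045 and -0.035 (without 7AF and 9AF, where 1 gene was called). Leaving out those pairs was chosen after the data were seen and leaves 1 mutant library, which is assumed to vary like WT.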
